A study of Rattus norvegicus with 30 samples.

Results

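Tissue grown inside a nerve guide after immediate repair was compared with tissue grown after delayed repair, 14 days after the tube was placed. The comparison held 8 of the 30 RNA sequencing libraries of the series, 4 of each repair, chosen by their labels. All came from the median nerve of adult female wild-type Rattus norvegicus. Surgeons cut the nerve, left 8 mm between its ends and joined them through a tube 10 mm long made of chitosan, a polymer derived from chitin. The tube was placed at once in the immediate group and 3 months after the injury in the delayed group, so both groups carry the same cut and the same tube. Delayed samples were also taken later after the injury, and the wait cannot be told apart from that longer time or from any difference in the age of the rats at sampling. Healthy control nerve (5 libraries) and the tube tissue of day 7 (4 immediate, 5 delayed) and day 21 (5 immediate, 3 delayed) are used below for context only. The labels state neither strain nor exact age. They number the replicates without tying each to a separate rat, and every p-value here therefore measures only the spread between these samples, which may be technical.

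A cut peripheral nerve regrows through Schwann cells, the glia of peripheral nerve. After injury they shed their myelin, divide, and guide growing axons as repair cells. An empty tube first fills with a fibrin-rich matrix, into which macrophages, fibroblasts, endothelial cells and Schwann cells migrate before axons follow. When a nerve stump stays without axons for months, its Schwann cells are known to lose part of this supporting capacity, which is why the delay before repair is studied.

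Total counts of the 8 libraries lay between 12628256 and 15509515. The table lists 32545 genes, and 14307 passed the filter on low counts. Genes are given by Ensembl ID, and 0 of those IDs matched a symbol in the gene table used here. Marker genes were therefore not read, the tissue label was not checked against them, and genes are described below by their level, their change and their history on other days. In bulk tissue, fewer cells of a type and less RNA per cell cannot be told apart.

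No gene passed the test for a difference at day 14. In the edgeR quasi-likelihood test 0 of 14307 genes had a Benjamini-Hochberg adjusted p under 0.05 (0.00%), and the lowest adjusted p was 0.9998. Before adjustment, 371 genes (2.59%) had an edgeR p under 0.05, a smaller share than the 0.05 due where no gene differs. Of these, 213 were higher (1.49% of all genes) and 158 lower (1.10%) after delayed repair. Without immediate replicate 1 the unadjusted count was 924 of 14457 genes, with 0 genes called by edgeR. With limma voom and sample quality weights 0 genes were called and 539 of 14307 had an unadjusted p under 0.05. DESeq2 called 12 genes, described further on.

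The differences that were measured were small in genes with good counts. Well expressed genes, taken as those with a mean of at least 10 CPM (read counts scaled to library size) over the 8 libraries, numbered 9834 and held 98.1% of all counts. The absolute difference between the repairs had a median of 0.10 on the log2 scale, a 1.07-fold change. In 95% of these genes the estimate lay below a 1.33-fold change, and in 99% below 1.76-fold. The same genes stood a median of 0.52 (immediate) and 0.53 (delayed) log2 units away from healthy control nerve at day 14, comparisons that share the day 14 libraries. Thus 2807 of them were at least 2-fold away from control after immediate repair and 2821 after delayed repair, while 41 were at least 2-fold higher and 24 at least 2-fold lower after delayed than after immediate repair.

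A missed call leaves room for differences that the spread hides, and the 95% interval of each gene's log2 fold change shows how much room. For 8805 of the 9834 well expressed genes (89.5%) the whole interval fell inside a 2-fold change, up or down. For 6578 (66.9%) it lay within a 1.5-fold change. The half-width of the interval had a median of 0.35, a 1.28-fold change. For the 1029 genes (10.5%) whose interval reached past 2-fold, a difference of that size is not excluded by it. These intervals hold gene by gene and are not adjusted for the number of genes.

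The room left by the intervals depended on the level of the gene. A 2-fold change bounded the interval of 46.5% of the 3962 genes with a mean of 1 to 10 CPM, and that of 4.89% of the 511 genes below 1 CPM. It did so for 89.2% of the 7931 genes between 10 and 100 CPM and for 91.1% of the 1827 genes between 100 and 1000 CPM. More counts did not narrow it further at the top: the 76 genes at 1000 CPM or more had a median half-width of 0.47, against 0.34 at 100 to 1000 CPM. Only 43.4% of these 76 had an interval within 1.5-fold, against 68.3% at 100 to 1000 CPM. The 100 most abundant genes, which took 27.8% of all counts, had log2 fold changes between -0.68 and 0.85. In 90 of them the interval lay within a 2-fold change, and the groups did not overlap in 1. The lowest mean among these 100 was 838 CPM, and larger rises without overlap lay below it. Genes with means of 786, 406 and 312 CPM had log2 fold changes of 1.62, 1.67 and 1.64 (edgeR adjusted p = 0.9998 in each). Between 100 and 1000 CPM the groups did not overlap in 10 higher and 16 lower genes (1.42% of the 1827). The largest such fall was -0.63, at 273 CPM.

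**Figure D1:**
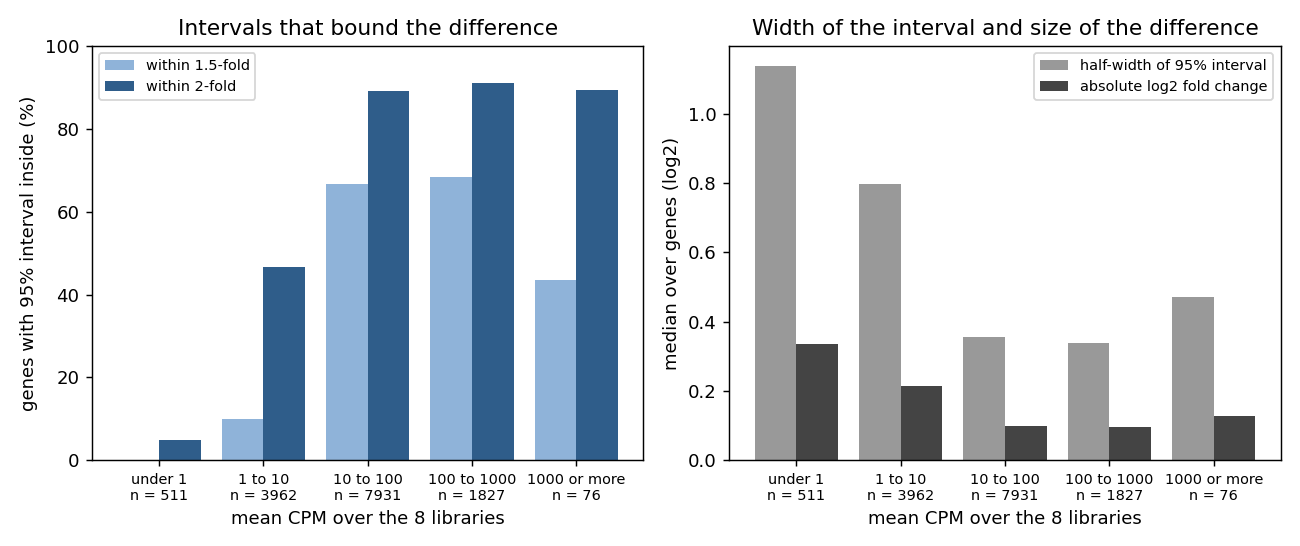
Left, the share of genes whose 95% interval of the delayed against immediate difference lies within a 1.5-fold (light) or 2-fold (dark) change, by mean CPM over the 8 libraries. Right, the median half-width of the interval (grey) and the median absolute log2 fold change (black) in the same bins. The half-width drops from 1.14 below 1 CPM to 0.34 at 100 to 1000 CPM and stays above the median difference in every bin.

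**Figure D2:**
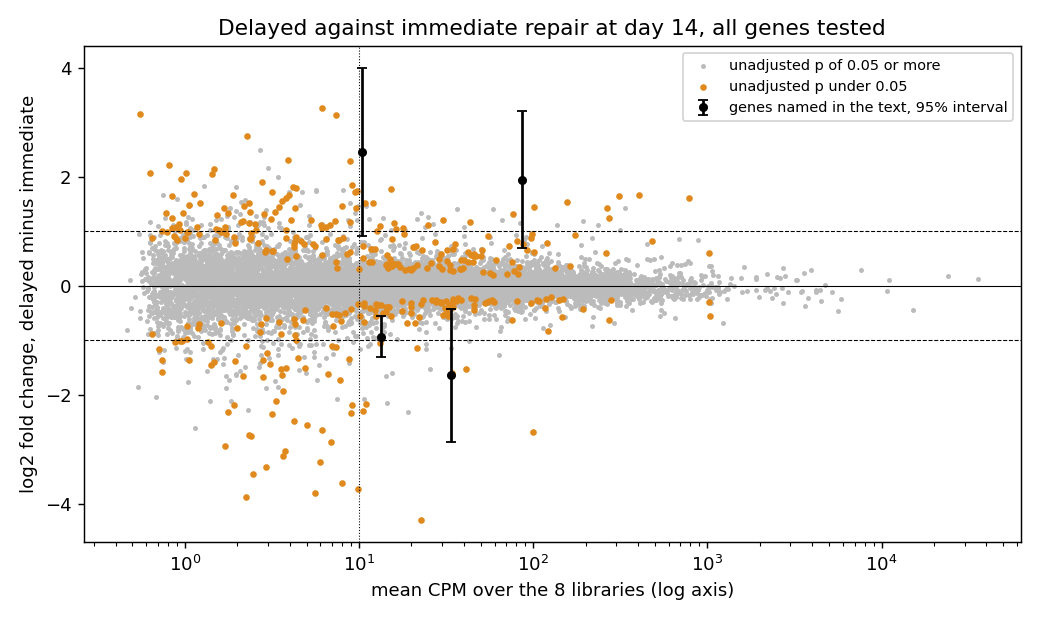
Log2 fold change of delayed against immediate repair at day 14 for each of 14307 genes, against mean CPM on a log axis. Dashed lines mark 2-fold changes, the dotted line marks 10 CPM, and orange points are the 371 genes with an unadjusted edgeR p under 0.05. Black points with bars are the 4 genes named in the text with their 95% intervals.

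Libraries were compared within and between the repairs. The Spearman correlation of log2 CPM had a median of 0.969 over the 16 pairs of a delayed and an immediate library. It was 0.974 over the 6 pairs of delayed libraries and 0.957 over the 6 pairs of immediate libraries. Each of the 8 libraries correlated best with a delayed library, the 4 immediate ones included. The biological coefficient of variation was 27.2% within the delayed and 33.3% within the immediate group.

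Immediate replicate 2 stood farthest from the rest. In that library 758 of the well expressed genes (7.71%) lay at least 2-fold from the median of the other 7, with 475 of them below. The other immediate libraries had 227 to 400 such genes, and the delayed libraries 107 to 312.

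The repairs overlapped on the main axes of spread. The first principal component, computed on log2 CPM, took up 32.2% of the variance. Its scores after delayed repair were 13.0, -33.8, 42.0 and -0.98 in replicates 1 to 4, and after immediate repair 33.6, -59.2, 12.0 and -6.65. The groups overlapped, with a difference of means of 10.1 (two-sided exact permutation test, p = 0.657, adjusted p = 0.83 over 3 library measures). The next component held 21.6% and also overlapped, with a difference of -17.6 (exact permutation p = 0.486, adjusted p = 0.83). With 4 libraries against 4 this test cannot give a p below 0.0286.

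Whether delayed tissue was behind or ahead of immediate tissue was measured on an axis drawn from other libraries. Each library was placed on the line from the mean of the day 7 libraries (0) to the mean of the day 21 libraries (1), using the well expressed genes. Delayed replicates 1 to 4 lay at 0.938, 0.909, 1.07 and 0.964. Immediate replicates 1 to 4 lay at 1.08, 0.736, 0.945 and 1.00. Both groups therefore lay near the day 21 end, and the range of the immediate libraries enclosed that of the delayed ones. Day 21 libraries themselves spread over 0.776 to 1.14 (immediate) and 0.857 to 1.07 (delayed), so the axis hardly parts day 14 from day 21. Control nerve lay beyond the day 21 end, at 1.13 to 1.16. A higher position is thus also one nearer to healthy nerve, and is not read as time alone. The means were 0.971 ± 0.071 (SD, n = 4) after delayed and 0.940 ± 0.146 (n = 4) after immediate repair, a difference of 0.031 (two-sided exact permutation p = 0.83, adjusted p = 0.83). The sign of this difference turned without immediate replicate 2 (-0.036) or without delayed replicate 3 (-0.0025), so no direction is read from it. Delayed day 7 replicate 5 (0.558) was the highest of its group and immediate day 21 replicate 4 (0.776) the lowest of its own, and with both left out of the axis the difference was 0.030.

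The order of the 8 libraries on the leading component was then set beside this position. Pearson's r was 0.903 (exact permutation p = 0.00196) and Spearman's rho 0.738 (exact permutation p = 0.0458), the 1 relation of this kind computed. Both measures are weighted sums of the same log2 CPM in the same libraries. The permutation treats them as unrelated, so these p-values are description and no independent support for the relation. Without immediate replicates 1 and 2, the farthest from the median position, r was 0.740 (exact permutation p = 0.106, n = 6). Spearman's rho was then 0.429 (exact permutation p = 0.419). The relation was thus not shown without those 2 libraries, where few values with a narrower range remain. It was not computed within a repair, where 4 libraries are fewer than the 6 taken as the least for a correlation, and no batch is given in the labels.

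**Figure D3:**
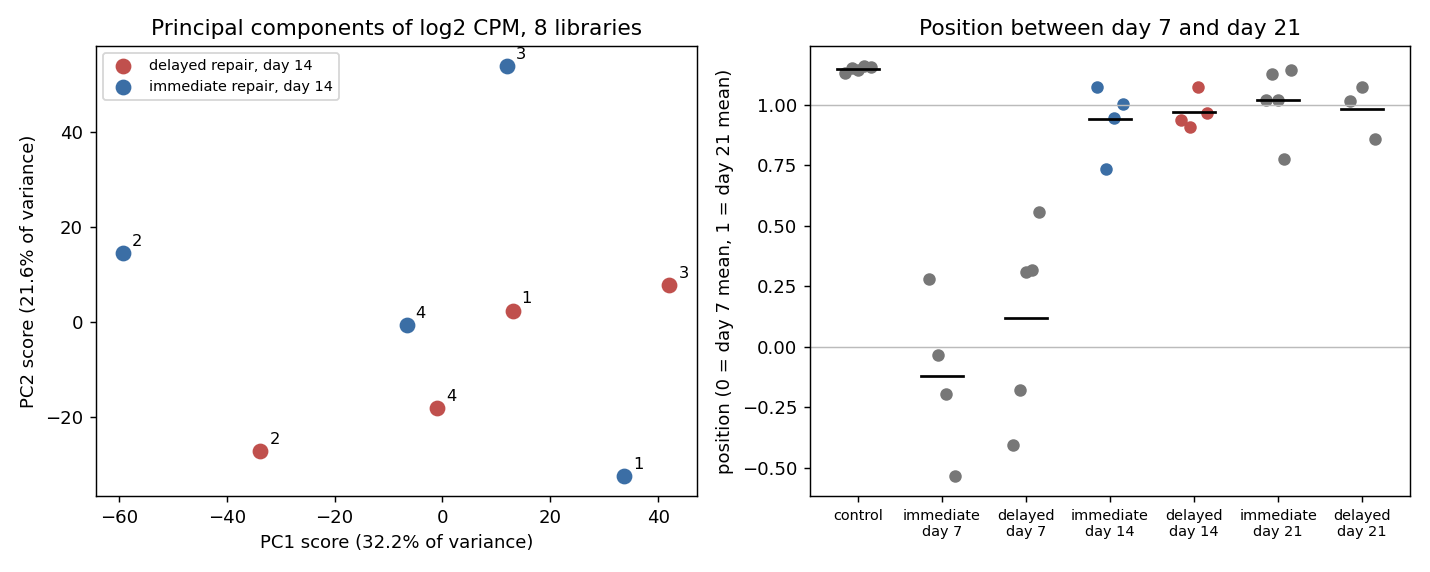
Left, scores of the 8 day 14 libraries on the leading 2 principal components of log2 CPM, numbered by replicate. Right, the position of every library of the series between the day 7 mean (0) and the day 21 mean (1), with bars at group means. Delayed and immediate libraries of day 14 overlap in both panels, and immediate replicate 2 is lowest of the 8 at 0.736.

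Genes with a marked history on other days were then followed in the day 14 libraries. The groups were chosen, among the genes tested at day 14, on the 22 libraries outside day 14. Their values at day 14 are thus measured in libraries that played no part in that choice. Besides the fold change given, each comparison with control or between days had to reach an edgeR adjusted p under 0.05. Of 1044 genes at least 4-fold above control on days 7 and 21 in both repairs, 0 were called at day 14, 13 had an unadjusted edgeR p under 0.05 upward and 15 downward. Their median log2 fold change was -0.043, beside -0.006 over all tested genes. Of 390 genes at least 4-fold below control on both days, 0 were called, 15 had an unadjusted p under 0.05 upward and 15 downward, and the median was 0.039. These were 7.69% of the 390 genes and, above, 2.68% of the 1044, beside 2.59% of all tested genes. The 390 had a low median level of 3.74 CPM, against 16.0 CPM for the 1044 and 23.6 CPM for all tested genes. Among all tested genes at 1 to 10 CPM, 4.09% had such a p, so the shares are not at like levels.

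Genes that change between day 7 and day 21 varied widely between single libraries. In both repairs 1262 genes were at least 2-fold higher at day 21 than at day 7 (edgeR adjusted p under 0.05). Of these, 0 were called at day 14, and the median difference between the repairs was 0.049. Measured from the mean of the 8 libraries, the median of these genes was -0.066, -0.070, 0.35 and 0.016 in delayed replicates 1 to 4. It was 0.26, -0.63, -0.013 and 0.20 in immediate replicates 1 to 4. Delayed replicate 3 was thus highest and immediate replicate 2 lowest. The same rule gave 572 genes at least 2-fold lower at day 21 than at day 7. They were highest in immediate replicate 2 (0.59) and lowest in immediate replicate 1 (-0.46), with -0.28 in delayed replicate 3. Their median difference between the repairs was -0.059.

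Genes that stood apart between the repairs on another day were also read at day 14. Those with an unadjusted edgeR p under 0.01 at day 7 were 324 higher and 23 lower after delayed repair. The 324 had a median log2 fold change of 4.02 at day 7 and of 0.085 at day 14. The day 7 median is read in the libraries that chose the genes, and the choice enlarges it. Their level was low, with a median of 7.89 CPM over the 8 day 14 libraries. At day 14 the libraries of the repairs were fully apart for 1 of them, beside 1.80% of all tested genes (257 genes: 142 higher, 0.993%, and 115 lower, 0.804%). The 23 had medians of -1.68 and -0.20.

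The day 21 genes were read in the same way, and the choice likewise enlarges their day 21 medians. The 122 genes higher after delayed repair at day 21 (unadjusted edgeR p under 0.01) had a median log2 fold change of 1.14 there and 0.12 at day 14. At day 14, 81 of the 122 were higher and 41 lower, and 17 had an unadjusted p under 0.05 upward and 1 downward. Over all tested genes 48.7% were higher, and 1.49% had such a p upward and 1.10% downward. Their library medians were 0.13, 0.20, -0.025 and 0.036 in delayed replicates 1 to 4 and -0.17, -0.12, 0.14 and -0.22 in immediate replicates 1 to 4. The groups overlapped through immediate replicate 3. The 46 genes lower at day 21 had medians of -1.04 there and -0.11 at day 14, where 30 of 46 were lower.

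**Figure D4:**
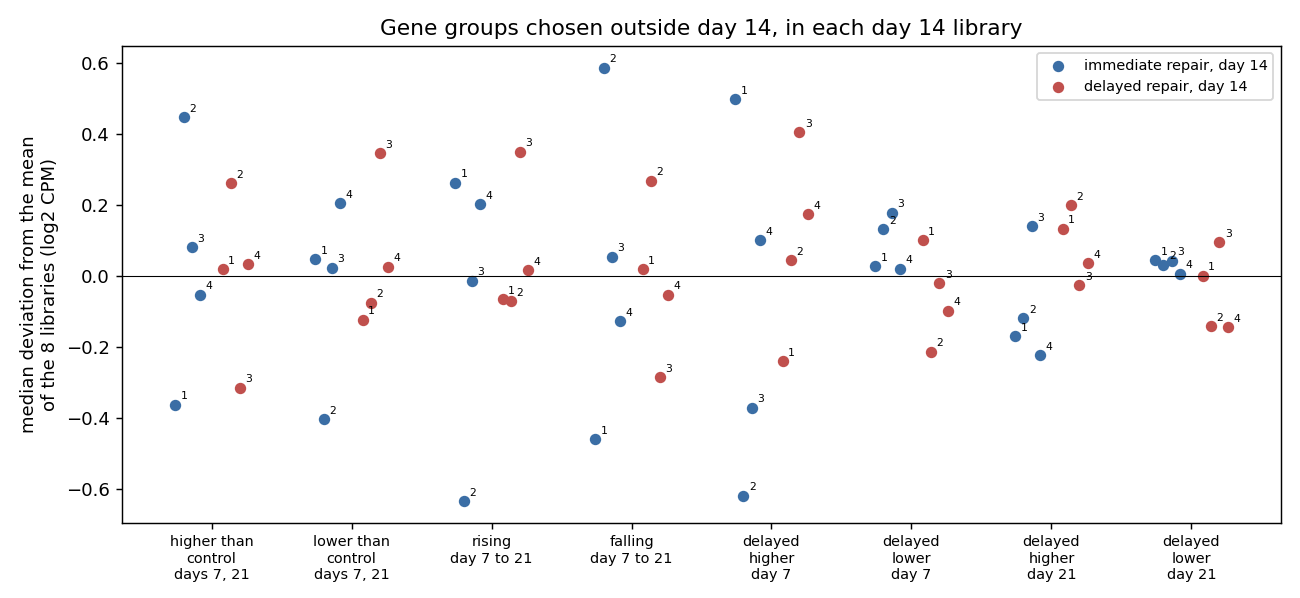
For 8 groups of genes chosen on libraries outside day 14, the median deviation of log2 CPM from the mean of the 8 libraries, in each day 14 library, numbered by replicate. Blue points are immediate and red points delayed repair. The repairs overlap in every group of genes, and immediate replicate 2 is lowest for genes rising from day 7 to day 21 (-0.63) and highest for genes falling (0.59).

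Read in the other direction, genes whose day 14 groups did not overlap leaned the same way at day 21. Of the 142 genes higher in every delayed library at day 14, 141 were tested on the other days, and 102 of them (72.3%) were higher after delayed repair at day 21. Over all tested genes that share was 48.2%. Of the 115 genes lower in every delayed library, 114 were tested there, and 80 were lower after delayed repair at day 21. Over all tested genes 7391 of 14271 were lower. At day 7 the numbers were 77 higher against 64 lower for the genes higher at day 14, and 59 lower against 55 higher for the genes lower at day 14. Over all tested genes 7864 were higher and 6404 lower at day 7. The split of the genes higher at day 14 was thus near that of all genes. These sets were chosen on the day 14 contrast itself, and day 7 and day 21 share no library with it.

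Whether the difference between the repairs was another one at day 14 than on the other days was tested as an interaction over all 30 libraries. Against day 7, 0 of 16015 genes had an edgeR adjusted p under 0.05 (0.00%), and 830 had an unadjusted p under 0.05. Without delayed day 7 replicate 1 edgeR called 9 genes against day 7, and without delayed day 7 replicate 2 it called 11. Against day 21, 0 were called (0.00%), and 385 had an unadjusted p under 0.05. DESeq2 called 97 genes against day 7 and 4 against day 21.

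Large differences were few among well expressed genes. Of the 41 genes at least 2-fold higher after delayed repair, 21 had their highest value in delayed replicate 2, and in 13 the groups did not overlap. Over all 9834 well expressed genes, delayed replicate 2 was highest in 1224 and immediate replicate 3 in 1706. Of the 24 genes at least 2-fold lower, 10 had their highest value in immediate replicate 3, and in 1 the groups did not overlap. Over all well expressed genes the groups did not overlap in 150 (1.53%). The 41 and the 24 were picked by the size of this same difference, which itself favours groups that do not overlap. Among those 13 genes higher after delayed repair, 5 were at least 2-fold below control at day 7 in both repairs and 0 at least 2-fold above, beside 14.3% and 19.1% of all well expressed genes. These counts also required an edgeR adjusted p under 0.05 in each repair. In 9 of the 9834 well expressed genes the interval lay wholly beyond a 1.5-fold change, 7 higher and 2 lower. The intervals are not adjusted for the number of genes, and edgeR called none of these genes.

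The 2 largest differences upward and the 2 largest downward, among well expressed genes whose groups did not overlap, are given with each library. ENSRNOG00000004712 measured 4.22, 43.6, 12.6 and 9.61 CPM in delayed replicates 1 to 4. It measured 3.69, 4.06, 1.83 and 3.18 CPM in immediate replicates 1 to 4. The lowest delayed library thus lay just above the highest immediate one, and delayed replicate 2 set the mean. The log2 fold change was 2.45 (SE 0.68, 95% interval 0.91 to 3.98, edgeR adjusted p = 0.9998), and without delayed replicate 2 it was 1.46. In control nerve this gene measured 80.6 ± 22.2 CPM (SD, n = 5), and at day 7 it measured 0.406 ± 0.422 CPM (n = 4) after immediate repair. After delayed repair at day 7 the 5 libraries ranged from 0.187 to 34.0 CPM around a mean of 7.19 CPM, with replicate 5 highest and the others below 1 CPM. Day 21 values of 0.487 to 35.1 CPM (immediate) and 3.01 to 46.8 CPM (delayed) overlapped.

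ENSRNOG00000015902 measured 75.1, 83.7, 208 and 180 CPM after delayed repair and 63.2, 11.1, 23.0 and 44.5 CPM after immediate repair, replicates 1 to 4. All 4 delayed libraries were higher, the nearest pair being 75.1 and 63.2 CPM. The log2 fold change was 1.95 (SE 0.55, 95% interval 0.69 to 3.21, edgeR adjusted p = 0.9998). Control nerve held 278.6 ± 29.1 CPM (SD, n = 5), and at day 7 the immediate libraries held at most 0.514 CPM. At day 21 the means were 86.0 ± 65.7 CPM (n = 5) after immediate and 114 ± 24.7 CPM (n = 3) after delayed repair, with overlapping ranges. After delayed repair at day 7, the median library was at 0 and the highest at 16.4 CPM. At day 14 the mean of either repair stood below that of healthy nerve.

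ENSRNOG00000002843 measured 32.3, 9.67, 18.1 and 5.25 CPM after delayed repair and 33.7, 34.0, 75.1 and 61.6 CPM after immediate repair, replicates 1 to 4. The groups were parted by 32.3 against 33.7 CPM. The log2 fold change was -1.64 (SE 0.53, 95% interval -2.86 to -0.43, edgeR adjusted p = 0.9998). Healthy nerve held at most 0.187 CPM of this gene, far below its level in the tube at day 14 in both repairs. At day 7 it measured 0.559 to 4.37 CPM after immediate and 0 to 83.1 CPM after delayed repair. At day 21 the immediate libraries spread from 3.64 to 470.1 CPM and the delayed from 15.9 to 65.8 CPM.

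ENSRNOG00000051854 had the least spread of the 4. It measured 10.8, 9.50, 8.15 and 8.39 CPM after delayed repair and 20.9, 15.7, 14.6 and 19.2 CPM after immediate repair, replicates 1 to 4. The highest delayed library lay well below the lowest immediate one. The log2 fold change was -0.93 (SE 0.17, 95% interval -1.31 to -0.56), with an edgeR adjusted p of 0.9998 and a DESeq2 adjusted p of 0.00297. Control nerve held 21.8 ± 4.29 CPM (SD, n = 5). At day 7 the means were 4.10 ± 3.56 CPM (n = 4) after immediate and 7.06 ± 4.23 CPM (n = 5) after delayed repair. At day 21 the delayed libraries held 9.58 ± 1.91 CPM (n = 3) and the immediate ones 19.2 ± 9.24 CPM (n = 5), and the ranges overlapped. Values outside day 14 are scaled over all 30 libraries. None of the 4 genes passed the interaction test against day 7 or day 21 (edgeR adjusted p of 0.795 to 1.00).

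**Figure D5:**
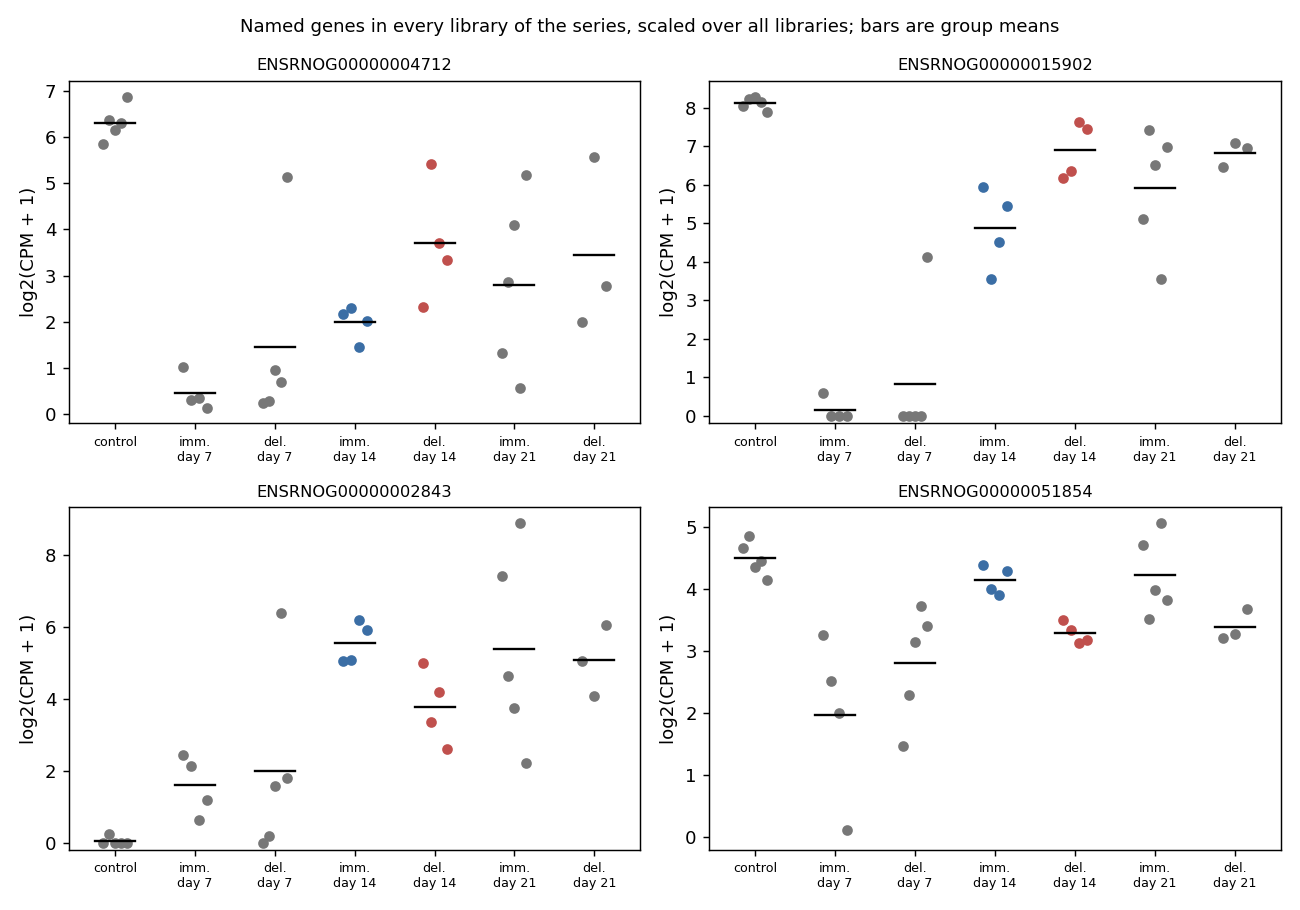
Level of the 4 named genes, as log2(CPM + 1) scaled over all 30 libraries, in each library, with bars at group means. Red and blue points are delayed and immediate repair at day 14. The day 14 groups do not overlap in any of the 4 genes, by which they were chosen, while the day 21 groups overlap in all 4.

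The 12 genes called by DESeq2 (0.0839% of those tested) were 7 higher and 5 lower after delayed repair. Their levels were low, with mean levels of 3.60 to 30.4 CPM and 4 of the 12 at 10 CPM or more. The 12 were picked by a test on this same contrast, so the rest is description. In 10 of them the repairs were fully apart, beside 1.80% of all tested genes, and their unadjusted edgeR p lay between 0.000111 and 0.00393. At day 21, 4 of the 7 higher genes were higher after delayed repair and 4 of the 5 lower genes were lower. With each library left out in turn, DESeq2 called 9 to 82 genes, of which 5 to 10 were among the 12. The 82 came without immediate replicate 1 and 25 without delayed replicate 1. With all 30 libraries in the fit DESeq2 called 7, of which 2 were among the 12.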

How the data were processed

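Gene expression was measured by poly(A) RNA sequencing without strand marking, per the labels' protocols (input 400 ng, RNA integrity over 6). Overlapping and antisense genes may thus share reads. The authors deposited one table of unnormalized counts for each gene and library. Per the submitters' processing notes, the tools named, without their roles, were DESeq2 1.38.3, featureCounts 1.5.0-p3 and HISAT2 2.0.5. Genome build, annotation and the handling of reads shared by near-identical genes were not given in the sources used here.

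In R 4.3.3, edgeR 4.0.16 was fitted to the 8 day 14 libraries alone, so that the spread of other days did not enter. Steps were filterByExpr, TMM factors, the robust quasi-likelihood test and Benjamini-Hochberg adjustment over all genes tested at 0.05. The 95% intervals used a standard error derived from each gene's quasi-likelihood statistic. Log2 CPM used a prior count of 2. The test was checked on simulated data. No 2 replicates agreed within sampling noise (chi-square over its degrees of freedom at least 25.8 in 12 pairs). Counts limit the precision of weakly expressed genes.

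The comparison and its lists were chosen with earlier results of these data known. The marker and pathway lists and the rule naming field genes were fixed by symbol and could not be applied. The rule for data without symbols was used: the 2 largest differences each way among genes of at least 10 CPM with no overlap. Gene groups by history, the relation of component and position, and DESeq2 on all libraries or with a library left out were added after seeing the data. Alternatives were DESeq2 1.42.0, limma 3.58.1 voom, other factors, no filter, all 30 libraries, a replicate block and leaving out each library. For the intervals the bound of 10 CPM was also set to 1 and to 50 CPM.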

Additional observations from a re-analysis of the deposited data

Results flagged for a closer look

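Delayed replicate 2 had a total count of 12628256, apart from the other 3 delayed libraries at 15324900 to 15509515. Its gap to the nearest of them was 93.6% of the range of the group. It was 1 of 40 groups of 4 values examined in this way, where chance sets about 1 in 20 apart. This library also held the highest value of 21 of the 41 well expressed genes that were at least 2-fold higher after delayed repair, beside 1224 of all 9834 well expressed genes. The part of depth in those genes was not tested. Without it, 0 genes were called by edgeR and 86.5% of well expressed genes had an interval within 2-fold.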

How the results depend on the processing

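The count of 0 genes between the repairs was also 0 under relative log expression scaling, with no low-count filter, with all 30 libraries fitted, with limma voom and with each of the 8 libraries left out (0 to 0). DESeq2 gave 12, and 7 on all 30 libraries, an alternative added after seeing the data. The labels do not say what libraries of the same replicate number share. Same-numbered libraries deviated together with r of 0.072 to 0.454, and 3 of 4 delayed libraries correlated best with their own number. Whether the numbers mark a pairing or a batch was not tested. With a replicate block 0 genes were called and 486 had an unadjusted edgeR p under 0.05, against 371 without it. The share of well expressed genes with an interval within 2-fold was 81.4% to 91.9% over the settings, and 85.8% to 90.4% with a library left out. Within 1.5-fold it was 58.7% to 73.9%, and 56.4% to 68.4%. Over all genes with a mean of at least 1 CPM the shares were 77.2% within 2-fold and 50.5% within 1.5-fold. For the interactions DESeq2 called 97 (day 7) and 4 (day 21) where edgeR called 0. Leaving out a library gave 0 to 11 calls against day 7, 9 without delayed day 7 replicate 1 and 11 without replicate 2, and 0 to 0 against day 21. The cause was not tested. The difference in position was -0.036 to 0.076 with a library left out. That on the leading component was -17.8 (without immediate replicate 2) to 26.8, and on the next -39.2 to -1.08, none past the exact permutation test. The 4 named genes kept their direction in every setting run. They were chosen for groups that do not overlap in these same libraries, so these settings could hardly turn it.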
